A study of Homo sapiens with 8 samples.

Results

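The genes described here are developmental transcription factors outside the homeobox class, from the GATA, forkhead (FOX), SOX, ZIC, AP-2 (TFAP2), WT1, HAND and SIM families, in Ewing sarcoma cells with a hairpin against RING1B. The list names 30 genes, chosen by family and symbol with earlier results of these data known. Shares of the list set beside those of all genes therefore describe these genes and do not test their families. For each gene the brightest probe set, by its mean over the 8 arrays, was used. Of the 30, 27 were tested, among 14884 named genes in all. FOXC1, FOXC2 and TFAP2A were not analysed here. SK-ES1 and A673, both established human Ewing sarcoma lines, each carried a hairpin that targets either RING1B (shRING1B) or GFP (shGFP), which makes 4 groups of 2 arrays. The shGFP cells are therefore hairpin-bearing controls, not untreated cells. By its title the study concerns RING1B, the fusion protein EWSR1-FLI1 and chromatin remodelling, and the design asks which transcripts differ once RING1B is targeted.

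RING1B, the product of RNF2, is the ubiquitin ligase of Polycomb repressive complex 1, which marks histone H2A and is best known for holding developmental genes silent. The families listed here are classic occupants of that class. GATA factors bind through zinc fingers and specify blood, heart and endoderm, SOX proteins bend DNA through an HMG box, and forkhead proteins bind through a winged helix. ZIC and AP-2 factors act at the neural plate border and in the neural crest, one of the proposed origins of Ewing sarcoma.

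Every level is a log2 expression value made by RMA, so 1 unit is a doubling, and levels are compared within a gene and not between genes. The array medians lay between 4.01 and 4.1, and the median of all probe sets, 4.06, serves only as a guide to dim signal. Arrays of a group correlated at 0.991 to 0.994 over the named genes, with the brightest probe set of each. All 7 Ewing sarcoma markers that were measured, of 10 listed, lay above the array's own median on all 8 arrays. Among them, CD99 had group means of 11.44 and 11.36 in SK-ES1 shRING1B and shGFP cells and 12.26 and 12.16 in A673 shRING1B and shGFP cells. Of markers of other cell types, KRT5, CLDN4, CD14, TYR, AFP and ALB were above the array's median on 0 arrays. KRT14, PECAM1, KDR and MITF were above it on 1 array each, and EPCAM, CD68, APOA1 and TTR on all 8. No label says whether the arrays of a group stem from separate cultures, and p-values therefore reflect only how far these samples vary, a spread that may be technical. RNF2 itself was not analysed here, and neither the labels nor the depth of the knockdown in each line could be checked on it.

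Of the 27 factors, 20 lay above 4.06 on all 8 arrays. FOXL2, SOX11, ZIC1, TFAP2C, SIM1 and SIM2 lay above it on some arrays, and ZIC4 on none. The pooled standard deviation between arrays of a group had a median of 0.146 over the factors and reached 0.296 for SOX8.

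**Figure D1:**
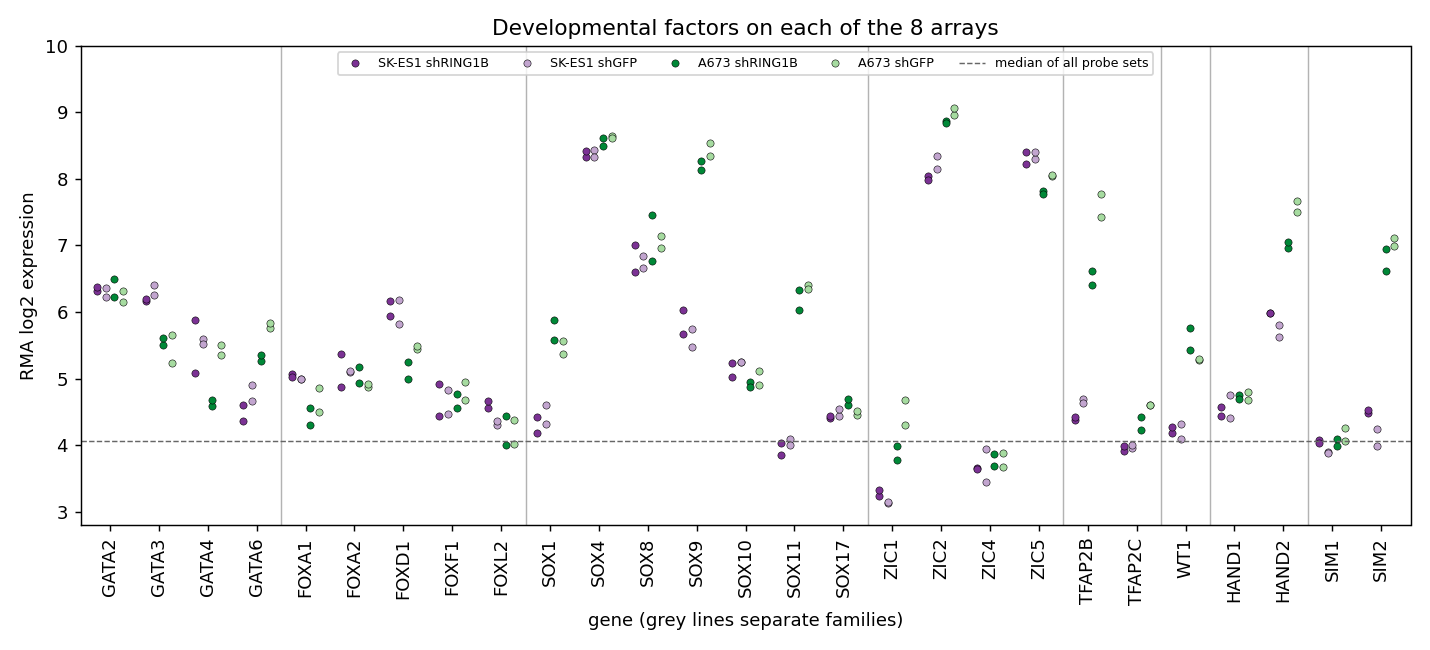
RMA log2 expression (vertical axis) of the 27 tested factors (horizontal axis, by family), with 1 point per array in 4 colours for the 4 groups and a dashed line at the median of all probe sets, 4.06. SOX9, SOX11, TFAP2B, HAND2 and SIM2 separate the lines most widely, with every A673 array above every SK-ES1 array, and ZIC4 stays under the dashed line on all arrays.

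In A673 cells, 3 factors fell with shRING1B and 0 rose: TFAP2B, an AP-2 factor of neural crest and sympathetic ganglia, HAND2, a basic helix-loop-helix factor of heart, limb and sympathetic neurons, and ZIC1, a zinc-finger factor of the neural plate border. TFAP2B fell by 2.13-fold and HAND2 by 1.49-fold. ZIC1 had a log2 change of -0.61, and no fold is given because both its shRING1B arrays lay under the median of all probe sets. The 3 falls make 11.1% of the 27 factors, where 3.04% of all 14884 genes were called lower and 0.705% were called higher in the same comparison (limma, adjusted p under 0.05). The median change of the factors was -0.15 on the log2 scale and 18 of 27 (66.7%) lay below 0, against a median of 0.01 and 47.8% below 0 over all genes.

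TFAP2B measured 6.40 and 6.62 log2 on the A673 shRING1B arrays, against 7.44 and 7.77 on the A673 shGFP arrays. Both shRING1B arrays lay well below both shGFP arrays. The group means were 6.51 ± 0.15 and 7.60 ± 0.23 (SD, n = 2 each), a log2 change of -1.09 (SE 0.14, 95% interval -1.40 to -0.79, 2.13-fold lower, limma adjusted p = 0.00255). HAND2 measured 6.96 and 7.05 log2 on the A673 shRING1B arrays, against 7.50 and 7.67 on the A673 shGFP arrays. Its groups did not overlap either, with means of 7.01 ± 0.06 and 7.58 ± 0.12 and a log2 change of -0.58 (SE 0.12, 1.49-fold lower, limma adjusted p = 0.0311). ZIC1 was dimmer, at 3.77 and 3.98 log2 on the A673 shRING1B arrays, against 4.30 and 4.68 on the A673 shGFP arrays. Both shRING1B arrays lay under the median of all probe sets and both shGFP arrays above it. The log2 change of ZIC1 was -0.61 (SE 0.15, limma adjusted p = 0.0491). In these bulk RNA samples, fewer cells that express a gene and less RNA per cell cannot be told apart.

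The call for TFAP2B held without any one array, with an adjusted p of at most 0.0329. Those for HAND2 and ZIC1 did not: without A673 shGFP replicate 2 the adjusted p was 0.249 for HAND2 and 0.345 for ZIC1, and leaving out A673 shGFP replicate 1 gave HAND2 0.0649. HAND2 also missed the threshold when the first (0.118) or the second (0.0756) A673 shRING1B array was dropped, or either SK-ES1 shRING1B array (0.0525). ZIC1 kept its call without A673 shGFP replicate 1 (0.0337) and lost it without each of the other arrays. Under repeated quantile normalization, median centring and cyclic loess ZIC1 also missed the threshold, with adjusted p-values of 0.0662, 0.0565 and 0.0536.

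**Figure D2:**
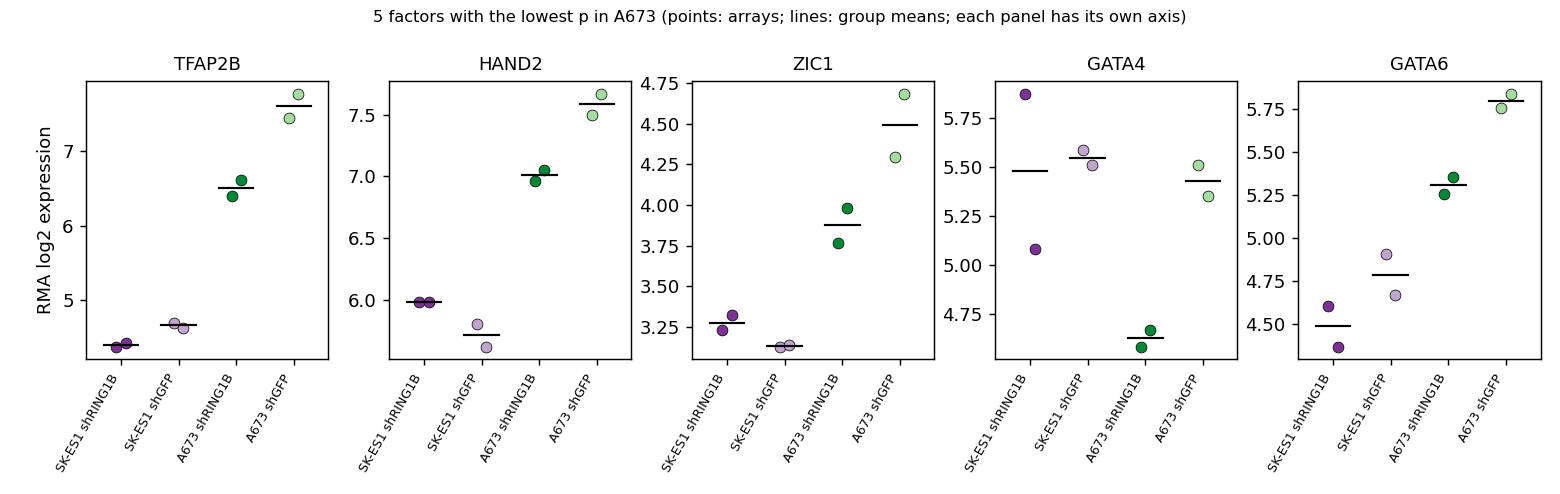
RMA log2 expression (vertical axis, its own range in each panel) of TFAP2B, HAND2, ZIC1, GATA4 and GATA6 on each array, by group along the horizontal axis, with lines at the group means. In A673 both shRING1B points lie below both shGFP points in all 5 panels, whereas in SK-ES1 only TFAP2B and GATA6 keep that order, HAND2 and ZIC1 have it turned round, and the GATA4 shRING1B points lie on either side of the shGFP points.

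GATA4 and GATA6, zinc-finger factors of heart, gonad and endoderm, had the next lowest p in A673 and missed the threshold. GATA4 measured 4.59 and 4.67 log2 on the A673 shRING1B arrays, against 5.51 and 5.36 on the A673 shGFP arrays. The groups were clear of each other by more than their own ranges, with a log2 change of -0.80 (SE 0.21, limma adjusted p = 0.069). The shared estimate of spread for GATA4 includes its SK-ES1 shRING1B arrays, which differed with an SD of 0.56. With 1 A673 array left out, the log2 change of GATA4 in A673 lay between -0.88 and -0.73. GATA6 measured 5.26 and 5.35 log2 on the A673 shRING1B arrays, against 5.76 and 5.84 on the A673 shGFP arrays, again with no overlap, and its log2 change was -0.49 (SE 0.13, limma adjusted p = 0.0749).

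At an unadjusted p under 0.05, 8 factors passed in A673 (29.6%), against 18.9% of all genes. Besides the 5 above these were TFAP2C, an AP-2 factor of trophoblast and germ cells (log2 change -0.28, adjusted p = 0.229), FOXD1, a forkhead factor of kidney stroma (-0.35, 0.255), and WT1, the zinc-finger factor of kidney and gonad named for Wilms tumour (0.31, 0.263). A second, dimmer probe set of FOXD1 had a log2 change of -0.03 in A673. The 24 factors outside the calls had changes between -0.80 and 0.31, and their 95% intervals ran from -1.27 (GATA4) to 0.62 (WT1). The 2 arrays of shRING1B lay wholly below those of shGFP for 12 factors (44.4%, against 23.9% of all genes) and wholly above for 4 (14.8%, against 26.0% of all genes).

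By family, neither the SOX nor the forkhead factors on the list had a call in A673. The 7 SOX genes had a median log2 change of -0.07, from -0.25 for SOX9, the cartilage and crest regulator, to 0.27 for SOX1, a neural progenitor factor. The 5 forkhead genes had a median of -0.15, from -0.35 for FOXD1 to 0.16 for FOXA2, a pioneer factor of endoderm. ZIC2 and ZIC5, adjacent genes on chromosome 13, had changes of -0.16 and -0.26. ZIC4, the neighbour of ZIC1, had 0.00, with every array under the median of all probe sets. SIM2, a basic helix-loop-helix PAS factor, had -0.27, its relative SIM1 -0.12, and HAND1, the partner gene of HAND2, -0.01.

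**Figure D3:**
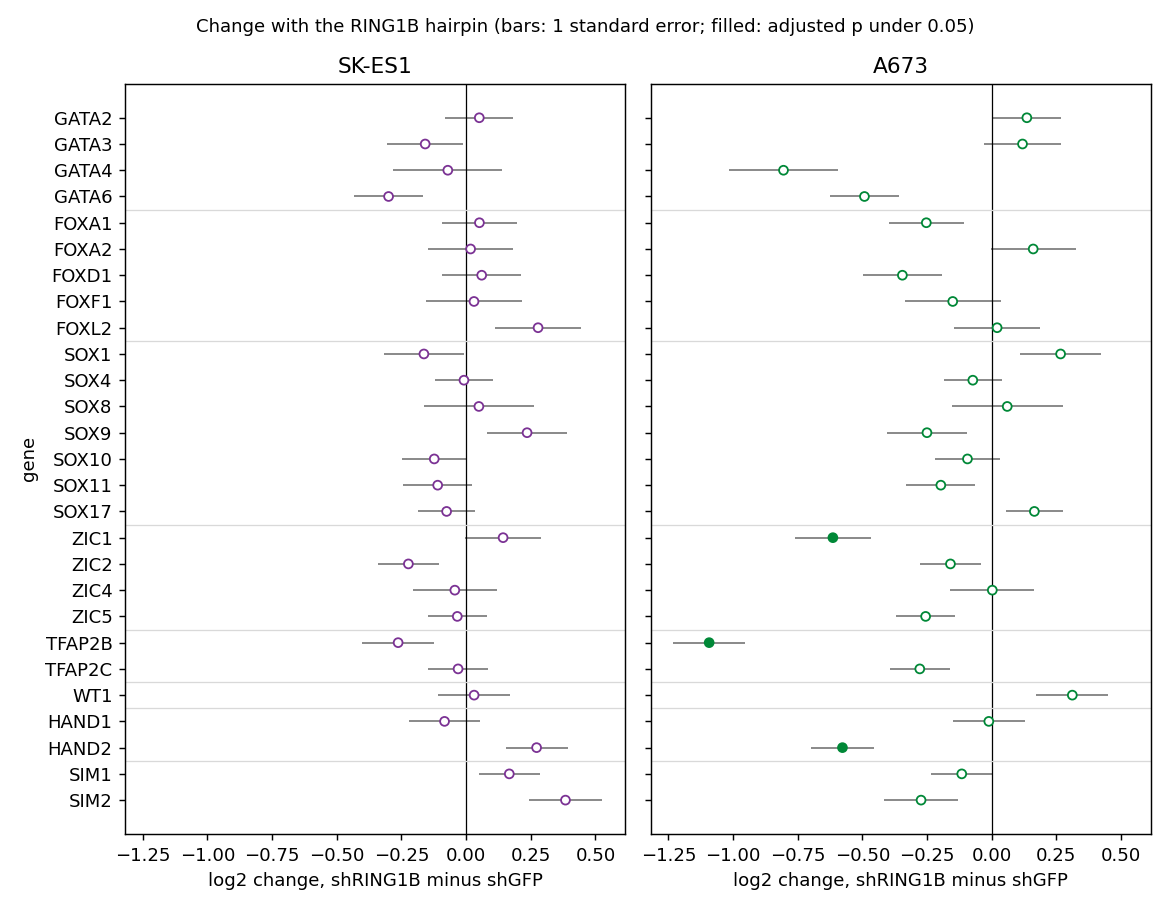
Log2 change with the hairpin, shRING1B minus shGFP (horizontal axis), for each factor (vertical axis, by family), with SK-ES1 on the left and A673 on the right, bars of 1 standard error and filled points for an adjusted p under 0.05. Only TFAP2B, HAND2 and ZIC1 in A673 are filled, and in SK-ES1 all changes lie between -0.30 and 0.38.

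The windows before the RefSeq starts of the 3 genes that fell are shown because the genes moved in the same direction in A673 and their windows differ in base composition. Each holds the 250 bases before the start on the gene's own strand (RefSeq, GRCh38.p14), with CG dinucleotides in capitals: TFAP2B at chr6:50818621-50818870 on the plus strand, HAND2 at chr4:173530230-173530479 on the minus strand, and ZIC1 at chr3:147409115-147409364 on the plus strand.
TFAP2B: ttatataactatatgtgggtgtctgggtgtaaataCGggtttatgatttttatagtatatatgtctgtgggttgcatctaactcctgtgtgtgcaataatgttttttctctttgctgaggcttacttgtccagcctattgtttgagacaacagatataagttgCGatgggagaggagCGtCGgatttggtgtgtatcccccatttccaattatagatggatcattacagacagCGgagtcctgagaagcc
HAND2: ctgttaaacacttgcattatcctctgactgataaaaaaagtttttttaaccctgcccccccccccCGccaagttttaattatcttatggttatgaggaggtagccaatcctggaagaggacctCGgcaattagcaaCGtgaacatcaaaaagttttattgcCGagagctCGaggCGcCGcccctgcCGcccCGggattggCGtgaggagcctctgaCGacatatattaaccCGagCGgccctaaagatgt
ZIC1: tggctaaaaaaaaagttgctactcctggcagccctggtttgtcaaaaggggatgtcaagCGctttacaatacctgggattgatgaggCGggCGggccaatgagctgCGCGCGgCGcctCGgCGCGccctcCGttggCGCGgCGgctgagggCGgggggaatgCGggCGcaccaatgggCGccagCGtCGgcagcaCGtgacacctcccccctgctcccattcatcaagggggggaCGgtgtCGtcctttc

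The TFAP2B window holds 5 CG dinucleotides at 40.8% GC, the HAND2 window 13 at 49.6% and the ZIC1 window 23 at 64.4%. CpG-rich starts are typical of Polycomb-bound genes as a class, and whether RING1B binds these 3 genes was not tested. In CG count only the ZIC1 window is above the median over windows of the listed factors. The ZIC1 and HAND2 windows are above the median of all windows, and the TFAP2B window is below it. RefSeq windows were matched for 19 of the 30 listed factors, 35 windows in all, with a median of 16 CG dinucleotides and 64.4% GC, against 11 and 58% over 35114 windows. GGAA is the core that ETS factors such as FLI1 bind. It occurred on either strand in 30 of the 35 windows (85.7%), against 92.7% of all windows, and in each of the 3 printed ones. The core repeated directly, as in the microsatellites that EWSR1-FLI1 binds, occurred in 2 windows, those of FOXD1 and GATA3, against 3.06% of all windows, and in none of the 3 printed ones. Such matches describe the letters of a short window and are not binding sites.

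The nearest named neighbours of the 3 genes did not pass the test in A673. Limma called 0 of the 6, with a lowest adjusted p of 0.164. TFAP2D and PKHD1 beside TFAP2B had log2 changes of -0.17 and 0.15, and SCRG1 and FBXO8 beside HAND2 had -0.07 and -0.32. ZIC4 and CPB1 beside ZIC1 had 0.00 and 0.09. The signal of ZIC4 lay under the median of all probe sets on every array, so its value says little about its RNA. HAND2-AS1, the antisense transcript that shares a start region with HAND2, had -0.18 in A673 (limma adjusted p = 0.645). It was chosen after its values were seen. All its group means, from 3.521 to 3.967, lay under the median of all probe sets, so this value too says little about its RNA.

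Among 54 measured relatives of these families outside the list, 2 fell in A673 and 0 rose (3.7%, near the 3.04% of all genes called lower): TRPS1, a GATA-type repressor of skeletal development (log2 change -0.70, limma adjusted p = 0.0183), and FOXP2, a forkhead factor of brain circuits (-0.84, 0.0497). Of 19 measured genes known as targets of these factors, 2 fell (10.5%): HAPLN1, the cartilage link protein under SOX9 control (-1.28, 0.00102), and KIT, a receptor tyrosine kinase of crest, germ and blood cells (-0.57, 0.0264). Limma called 0 of 12 cofactors, with 2 at an unadjusted p under 0.05, and 0 of 9 neural crest factors outside the list, with 6 at an unadjusted p under 0.05. Those 6 lay in both directions. MSX1, MSX2 and TWIST2 had changes of -0.36, -0.47 and -0.51, and TWIST1, PAX3 and NGFR had 0.39, 0.47 and 0.50.

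In SK-ES1 cells no factor passed the test. Limma called 0 of 27, where it called 0.0672% of all genes in either direction, and 3 factors (11.1%) had an unadjusted p under 0.05, against 7.36% of all genes: GATA6, HAND2 and SIM2. The changes ran from -0.30 to 0.38, and the lowest adjusted p was 0.611. The 95% intervals reached from -0.59 (GATA6) to 0.70 (SIM2), so no interval held a log2 change as low as that of TFAP2B in A673. Factors such as ZIC1 and TFAP2C, with SK-ES1 shGFP means of 3.13 and 3.97, lay under the median of all probe sets. At such dim signal a fall of that size in RNA could go unseen. The median change was -0.01 with 14 of 27 below 0, against 0.00 over all genes. The 2 arrays of shRING1B lay wholly below those of shGFP for 6 factors (22.2%, against 19.3% of all genes) and wholly above for 6 (22.2%, against 17.8%).

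SIM2 had the largest change in SK-ES1, at 4.48 and 4.52 log2 on the shRING1B arrays, against 4.24 and 3.99 on the shGFP arrays. The groups did not overlap, but the log2 change of 0.38 (SE 0.14) had an adjusted p of 0.611. HAND2 measured 5.98 and 5.98 log2 on the SK-ES1 shRING1B arrays, against 5.80 and 5.62 on the SK-ES1 shGFP arrays, a change of 0.27 (adjusted p = 0.668) in the direction opposite to that in A673. GATA6 measured 4.61 and 4.37 log2 on the shRING1B arrays, against 4.91 and 4.67 on the shGFP arrays. Its groups did not overlap, with a change of -0.30 (adjusted p = 0.668). TFAP2B measured 4.38 and 4.42 log2 on the shRING1B arrays, against 4.70 and 4.64 on the shGFP arrays, a change of -0.26 (adjusted p = 0.751), and both shRING1B arrays were lower. ZIC1 measured 3.23 and 3.33 log2 on the shRING1B arrays, against 3.13 and 3.14 on the shGFP arrays. All 4 lay under the median of all probe sets, and the change was 0.14 (adjusted p = 0.897). GATA4 measured 5.88 and 5.08 log2 on the shRING1B arrays, against 5.59 and 5.51 on the shGFP arrays, so its shRING1B arrays lay on either side of the controls.

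The remaining factors moved little in SK-ES1, and none passed. The 7 SOX genes had a median log2 change of -0.08, from -0.16 for SOX1 to 0.24 for SOX9, each with the sign opposite to its value in A673. All 5 forkhead genes lay above 0, with a median of 0.05, from 0.02 for FOXA2 to 0.28 for FOXL2, a factor of the ovary. GATA2 and GATA3 had 0.05 and -0.16, and ZIC4 and ZIC5 -0.04 and -0.03. TFAP2C, WT1, HAND1 and SIM1 had changes of -0.03, 0.03, -0.08 and 0.17.

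None of the related lists had a call in SK-ES1. Limma called 0 of 54 relatives, 0 of 12 cofactors, 0 of 19 targets and 0 of 9 neural crest factors, with 3, 1, 1 and 1 at an unadjusted p under 0.05. TRPS1, FOXP2, HAPLN1 and KIT had log2 changes of -0.24, -0.09, 0.13 and -0.14 there.

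Averaged over both lines, 1 factor fell, TFAP2B, with a mean log2 change of -0.68 (SE 0.10, limma adjusted p = 0.00912), where 1.24% of all genes were called lower. Without SK-ES1 shRING1B replicate 1 or 2 its adjusted p was 0.0522 or 0.0543. GATA6 (-0.40, adjusted p = 0.0791) and GATA4 (-0.44, 0.211) came next by p. At an unadjusted p under 0.05, 5 factors passed (18.5%), near the 14.5% of all genes. In each line separately, the shRING1B arrays lay below the shGFP arrays for GATA6, ZIC2 and TFAP2B, 3 of 27 (11.1%), against 5.38% of all genes. ZIC2, a zinc-finger factor of forebrain, measured 8.05 and 7.99 log2 in SK-ES1 shRING1B cells, against 8.15 and 8.34 in SK-ES1 shGFP cells. In A673 it measured 8.88 and 8.85 log2 with shRING1B, against 8.97 and 9.07 with shGFP. The ZIC2 steps were small, -0.22 and -0.16 on the log2 scale, and the mean had an adjusted p of 0.327.

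The hairpin effect was then compared between the lines, as the SK-ES1 change minus the A673 change. Limma called 0 of 27 factors, against 0.786% of all genes, and 5 (18.5%) had an unadjusted p under 0.05, against 13.7% of all genes. HAND2 had the largest difference, 0.85 (SE 0.17, adjusted p = 0.0585), from a change of 0.27 in SK-ES1 and -0.58 in A673. TFAP2B had 0.83 (SE 0.20, adjusted p = 0.0986), from changes of -0.26 and -1.09 in the same order of lines. ZIC1 had 0.76 (adjusted p = 0.15), GATA4 0.73 (0.314) and SIM2 0.66 (0.196). All 5 differences were positive, so the change in SK-ES1 was higher than that in A673. A fall in A673 that passed the test is thus not shown to differ from the change in SK-ES1. The difference for HAND2 passed the threshold under 4 of 15 alternative settings, with an adjusted p between 0.0139 and 0.0499 under those. Of genes outside the list, limma called 1 of 19 targets (5.26%), HAPLN1 (1.42, adjusted p = 0.0135). It also called 1 of 9 neural crest factors (11.1%), TWIST1 (-1.05, adjusted p = 0.0341), and 0 of 54 relatives and 0 of 12 cofactors.

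For SOX17, ZIC1, HAND2 and SIM2, 4 of 27 (14.8%), the hairpin arrays separated in opposite directions in the lines, against 8.69% of all genes. SIM2 in A673 measured 6.94 and 6.61 log2 with shRING1B, against 7.11 and 6.99 with shGFP, the reverse of its order in SK-ES1. SOX17, an endoderm and endothelial factor, measured 4.40 and 4.44 log2 in SK-ES1 shRING1B cells, against 4.44 and 4.55 in SK-ES1 shGFP cells. In A673 it measured 4.60 and 4.70 log2 with shRING1B, against 4.45 and 4.52 with shGFP. The SOX17 groups in SK-ES1 were separated by less than 0.01, and its difference between lines was -0.24 (adjusted p = 0.551).

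The lines were next compared under the control hairpin. With shGFP, 13 factors differed between SK-ES1 and A673, 11 lower in SK-ES1 and 2 higher. The 11 make 40.7% of the factors, against 17.0% of all genes called lower, and the 2 make 7.41%, against 13.7% of all genes called higher. A difference of more than 1 log2 was found for 9 factors (33.3%), against 8% of all genes. This comparison shares the shGFP arrays of each line with the hairpin comparisons above, so the values stand side by side and are not set against each other.

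SOX9, SOX11 and SOX1 were lower in SK-ES1. SOX9 measured 5.48 and 5.75 log2 on the SK-ES1 shGFP arrays, against 8.35 and 8.54 on the A673 shGFP arrays, a difference of -2.84 (SE 0.16, 7.14-fold lower, limma adjusted p = 5.12e-07). SOX11, an embryonic neural factor, measured 4.098 and 4.002 log2 in SK-ES1, against 6.40 and 6.35 in A673. Its SK-ES1 arrays lay near the median of all probe sets and its A673 arrays far above (difference -2.33, adjusted p = 7.13e-07). SOX1 measured 4.32 and 4.60 log2 in SK-ES1, against 5.57 and 5.37 in A673 (difference -1.01, adjusted p = 0.00074). The other SOX genes on the list did not pass: SOX4, SOX8, SOX10 and SOX17 had differences of -0.25, -0.31, 0.24 and 0.01. SOX4 was bright on all 8 arrays, between 8.33 and 8.65, and SOX10, the Schwann and melanocyte regulator, lay between 4.88 and 5.25.

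Both measured AP-2 genes on the list were lower in SK-ES1, while TFAP2D, outside the list, had a difference of 0.03 (limma adjusted p = 0.922). TFAP2B, with the arrays given above, had a difference of -2.94 (SE 0.14, 7.65-fold lower, limma adjusted p = 1.93e-07). TFAP2C measured 3.948 and 4.001 log2 in SK-ES1 shGFP cells, against 4.60 and 4.60 in A673 shGFP cells (difference -0.62, adjusted p = 0.00227). Its SK-ES1 arrays lay under the median of all probe sets and its A673 arrays above. SIM2 was lower in SK-ES1 too (difference -2.94, adjusted p = 2.28e-07), and no fold is given because its SK-ES1 shGFP arrays lay about the median of all probe sets. HAND2 had -1.88 (SE 0.12, 3.67-fold lower, adjusted p = 1.53e-06). SIM1 and HAND1 had -0.26 and -0.15 and did not pass.

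Among zinc-finger genes the differences ran both ways. ZIC1 had -1.35 (lower in SK-ES1, adjusted p = 6.37e-05), with all SK-ES1 arrays under the median of all probe sets, so no fold is given. ZIC2 had -0.78 (adjusted p = 0.000599), while ZIC5, the neighbour of ZIC2, had 0.30 (adjusted p = 0.0808) and ZIC4 -0.08. WT1 measured 4.08 and 4.31 log2 on the SK-ES1 shGFP arrays, against 5.28 and 5.30 on the A673 shGFP arrays, with no overlap (difference -1.09, adjusted p = 0.000209). WT1 in A673 shRING1B cells lay higher, at 5.43 and 5.76, and in SK-ES1 shRING1B cells it lay at 4.18 and 4.28. GATA6 was lower in SK-ES1 (-1.01, adjusted p = 0.000243) and GATA3, a factor of T cells, breast and sympathetic neurons, was higher. GATA3 measured 6.26 and 6.41 log2 on the SK-ES1 shGFP arrays, against 5.23 and 5.66 on the A673 shGFP arrays (difference 0.89, adjusted p = 0.00113). GATA4, and GATA2, a blood stem cell factor, had differences of 0.12 and 0.06 and did not pass. WT1-AS, the antisense partner of WT1 and chosen after its values were seen, was also lower in SK-ES1 (-0.51, limma adjusted p = 0.0338). The WT1-AS signal was dim, with a mean of 3.685 in SK-ES1 shGFP cells, under the median of all probe sets, and 4.195 in A673 shGFP cells.

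Of the forkhead genes on the list only FOXD1 passed, and it was higher in SK-ES1. FOXD1 measured 5.82 and 6.18 log2 on the SK-ES1 shGFP arrays, against 5.44 and 5.49 on the A673 shGFP arrays (difference 0.53, adjusted p = 0.0237). Its second, dimmer probe set had a difference of 0.25, and without SK-ES1 shGFP replicate 2, A673 shGFP replicate 1 or A673 shGFP replicate 2 the adjusted p of FOXD1 was 0.176, 0.107 or 0.0806. FOXA1, FOXA2, FOXF1 and FOXL2 had differences of 0.31, 0.21, -0.16 and 0.14.

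The line difference was also read on the shRING1B arrays, an alternative added after seeing the data. There 16 factors passed, 11 lower in SK-ES1 (17.7% of all genes were called lower) and 5 higher (13.8% of all genes). All 13 factors that differed under shGFP were among them, in the same direction. TFAP2B had -2.11, HAND2 -1.03 and ZIC1 -0.60 under shRING1B, against -2.94, -1.88 and -1.35 under shGFP. SOX11 and ZIC2 had -2.24 and -0.84 under shRING1B, against -2.33 and -0.78 under shGFP. The shRING1B arrays show the same order of lines. SOX9 measured 6.03 and 5.66 log2 on the SK-ES1 shRING1B arrays, against 8.13 and 8.26 on the A673 shRING1B arrays. SOX11 measured 3.85 and 4.03 log2 in SK-ES1, against 6.33 and 6.03 in A673, and SOX1 4.18 and 4.41 log2 in SK-ES1, against 5.58 and 5.89 in A673. None of these groups overlapped, and SOX1 had the wider gap of its 2 comparisons here (-1.44 under shRING1B, against -1.01 under shGFP). TFAP2C measured 3.91 and 3.98 log2 in SK-ES1, against 4.22 and 4.42 in A673. GATA3 measured 6.17 and 6.19 log2 in SK-ES1, against 5.51 and 5.62 in A673, and FOXD1 5.94 and 6.17 log2 in SK-ES1, against 4.997 and 5.246 in A673. GATA3 and FOXD1 were thus higher on both SK-ES1 arrays. GATA4 (0.85, adjusted p = 0.0113), FOXA1 (0.62, 0.00867) and ZIC5 (0.52, 0.00658) passed under shRING1B alone, against 0.12, 0.31 and 0.30 under shGFP, and limma called none of these 3 in the difference of hairpin effects between lines.

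**Figure D4:**
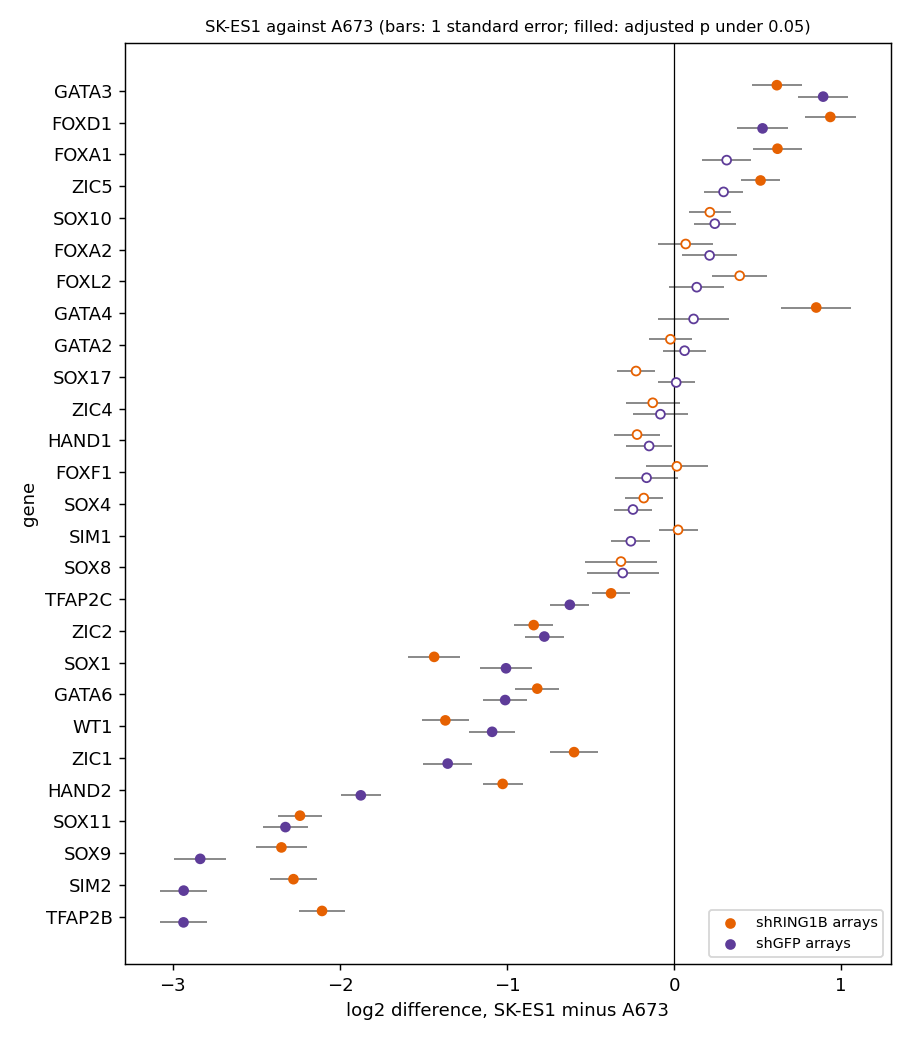
Log2 difference, SK-ES1 minus A673 (horizontal axis), for each factor (vertical axis, ordered by the shGFP difference), on the shRING1B arrays (orange) and the shGFP arrays (purple), with bars of 1 standard error and filled points for an adjusted p under 0.05. TFAP2B, SIM2, SOX9 and SOX11 lie beyond -2 with either hairpin, and GATA3 and FOXD1 are filled on the positive side with both.

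Outside the list, 7 of 54 relatives were lower in SK-ES1 under shGFP (13%) and 10 were higher (18.5%), near the 17.0% and 13.7% of all genes. FOXD3, the crest specifier, had 1.58, SOX6 and SOX18 had 0.84 and 0.92, and FOXM1, a factor of the cell cycle, had -0.86. Of 19 targets, 4 were lower (21.1%) and 1 was higher (5.26%), with HAPLN1 at -3.78, PODXL, a WT1 target of podocytes, at -1.73, KIT at -1.33 and STAR, a steroidogenic GATA4 target, at -0.60. Of 12 cofactors, 4 were lower (33.3%) and 1 was higher (8.33%): the acetyltransferase CREBBP had -0.82, ARNT2, a partner of SIM proteins, -0.81, LDB1, a bridge for GATA complexes, -0.48 and WTAP, named for binding WT1, 0.38. Of 9 neural crest factors, 3 were lower (33.3%) and 2 were higher (22.2%), among them SNAI1 at -1.01, TWIST2 at -0.59, ETS1 at -0.56 and MSX1 at 0.68.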

How the data were processed

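Expression was measured on Affymetrix whole-transcript arrays. The deposited values are log2 expression per probe set, and the submitters' processing notes name RMA and limma with no versions. RMA gives all arrays the same distribution of probe intensities before these are summarized per probe set. A shift shared by most genes would therefore largely not show, although array medians of the deposited values still ranged from 4.01 to 4.1. Signal over background was not measured, since scanner files were not used, and precision is limited by how few arrays there are. The genome build behind the array is not given in the sources used here. Of 48144 probe sets, 16098 (33.4%) had 1 gene symbol in the platform annotation, giving 14884 genes, of which 779 had several probe sets; the brightest over the 8 arrays was kept. The other probe sets are unnamed here. Names, neighbours and promoter windows came from RefSeq (GRCh38.p14).

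Group means of the 4 groups were estimated over the 8 arrays in R 4.3.3 by limma 3.58.1 (statmod 1.5.0), with 4 residual and 6 prior degrees of freedom. Two-sided p-values were Benjamini-Hochberg adjusted in each contrast over all 14884 genes, and a gene was called at an adjusted p under 0.05. "Rose" and "fell" are used of called genes. Values with ± are means and SDs over 2 arrays, and SEs come from the model. The labels give no replicate numbers, so replicate 1 and 2 are names in accession order and pair nothing. The code was tested on simulated data. Members and lists were chosen with earlier results of these data known. All listed factors are named, those called in any contrast or separated in both lines with every array, and of the other lists up to 4 called genes per contrast, those with the smallest p. Genes of the neural crest list below the calls were named after their values were seen. Alternatives were repeated quantile normalization, median centring, cyclic loess, a filter on dim genes, the mean of all probe sets, protein-coding genes only, a trended robust variance, the compared arrays only and each array left out. The comparison of lines under shRING1B was added after seeing the data.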

Additional observations from a re-analysis of the deposited data

Results flagged for a closer look

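For 4 factors the 2 shRING1B arrays lay wholly on one side of the shGFP arrays in SK-ES1 and wholly on the other side in A673. The difference itself, the SK-ES1 change minus the A673 change in log2, was tested with limma and none passed. HAND2 differed by 0.85 (adjusted p = 0.0585), ZIC1 by 0.76 (0.15), SIM2 by 0.66 (0.196) and SOX17 by -0.24 (0.551).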

How the results depend on the processing

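The count of factors called in A673 was 3, and it was 5 with protein-coding genes only, which adds GATA4 and GATA6, 4 with dim genes left out and with a trended robust variance, 2 under each of the 3 renormalizations and with only the arrays compared, and 1 to 2 with one array left out. In SK-ES1 it was 0 under every alternative run. For the mean of the lines it was 1, and it was 2 with dim genes left out and with protein-coding genes only, and 0 to 1 with one array left out. For the difference between lines it was 0, and it was 1 with cyclic loess, with dim genes left out and with protein-coding genes only, and 2 with a trended robust variance. Under shGFP the line difference gave 13, and 12 to 15 under the alternatives on shGFP arrays; the shRING1B arrays gave 16. Dropping dim or non-coding genes lowers the number of tests, and the cause of the other moves was not tested. Of 135 results for single factors, 17 were called, all 17 kept their sign under every alternative run and 13 kept their call. Of the 118 not called, 10 were called under some alternative and 45 changed sign under one. TFAP2B in A673 was called under all 16 alternatives, HAND2 under 9 of 16 and ZIC1 under 4 of 15, since the filter on dim genes leaves ZIC1 out. GATA4 in A673 was called under 6 of 16 and GATA6 under 2 of 16. Over all genes the count called ranged from 101 to 1052 in A673, 2 to 34 in SK-ES1, 51 to 481 for the mean, 0 to 281 for the difference between lines and 3160 to 4964 under shGFP. No paired analysis was possible because the labels give no replicate numbers that tie arrays across groups. With 2 arrays a group, leaving one out leaves an arm of 1 array, assumed to vary like the other groups.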
